A study of Homo sapiens with 4 samples.

Results

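Gastrin-releasing peptide (GRP) and neuromedin B (NMB) are the mammalian relatives of the frog skin peptide bombesin, and GRPR and NMBR are the receptors that prefer each of them. These 4 genes were taken by their symbols from the 56595 distinct gene symbols of the table, and each symbol had 1 row. GRP was chosen by its large fall with IWP2 in these libraries, so its difference is given below as a description without a test, while the other 3 were added as its family. The cells were H1, an established human embryonic stem cell line, kept for 2 days in custom mTeSR1 medium with activin A at 40 ng/ml and BMP4 at 50 ng/ml, the mesoderm-inducing step of a hematopoietic differentiation. All 4 libraries received both factors. The DMSO group (2 libraries) had no Wnt inhibitor, and the IWP2 group (2 libraries) received IWP2, a small molecule that blocks Porcupine, the enzyme that attaches the fatty acid Wnt proteins need for secretion. The comparison asks what loss of Wnt secretion did to transcript levels at the exit from pluripotency. The labels give neither the IWP2 dose nor whether the replicates were separate cultures, so the p-values measure the spread between these samples, which may be technical. H1 is a single cell line.

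Both peptides are cut from longer precursors at pairs of basic residues, and their ends are amidated. They act on G protein-coupled receptors that drive the Gq/11 and phospholipase C route to calcium release and protein kinase C, and that are switched off by receptor kinases and arrestins. GRP is known for the release of gastrin in the stomach, for neuroendocrine cells of the lung and gut, and as a growth factor for tumour cells. NMB is known for smooth muscle contraction and for its expression in the brain. BRS3 is an orphan receptor of the same family that neither peptide binds well.

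The receptor-binding end of the peptides shows how close the ligands are. The next lines give the coding bases for the last 10 residues of each mature peptide, read from GENCODE 29 transcripts, 5′ to 3′ on the coding strand, with capitals for bases that both genes share.
GRP: GGCAACCaCTGGGCggtgGGgCACTTaATG
NMB: GGCAACCtCTGGGCcaccGGtCACTTcATG
The runs shared 23 of 30 bases, and 7 of 10 codons gave the same residue. In both genes the next codon was for glycine, the residue that is turned into the terminal amide. In both genes the run began in exon 1 and ended in exon 2, so it crossed a splice junction (GRP, GRCh38 chr18:59220386-59225502, plus strand; NMB, chr15:84657338-84658014, minus strand).

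In the libraries without IWP2, GRP was a highly expressed gene, with FPKM values (fragments per kilobase of transcript, scaled to the mapped fragments of the library) of 155 and 165. With IWP2 the values were 0.609 and 0.496. Both treated libraries were thus far below both controls. The groups did not overlap, as in 58.6% of all tested genes in either direction, and GRP was chosen for its fall. The mean was 159.7 ± 7.33 FPKM (SD, n = 2) in the DMSO group and 0.552 ± 0.0800 (SD, n = 2) in the IWP2 group, a ratio of 289, and the lowest control was 254 times the highest treated library. The treated cells kept 0.346% of the control level. On the log2(FPKM + 1) scale, which understates changes that end near 0, the difference was -6.69 ± 0.10 (SE), the second largest fall among 15957 genes tested. APLNR, the apelin receptor of early mesoderm, had the larger fall at -6.91 and MESP1, a factor of nascent mesoderm, the next at -5.70. From the smallest values of long genes with a single transcript, GRP rested on about 2891 and 2767 fragments in the controls and about 12 and 9 with IWP2. The treated level was therefore low but not 0. The GRP gene (ENSG00000134443.9) lies on chr18:59220168-59230774, has 5 annotated transcripts, and overlaps no other annotated gene. In these bulk libraries, fewer GRP-expressing cells and less GRP RNA per cell cannot be told apart.

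**Figure D1:**
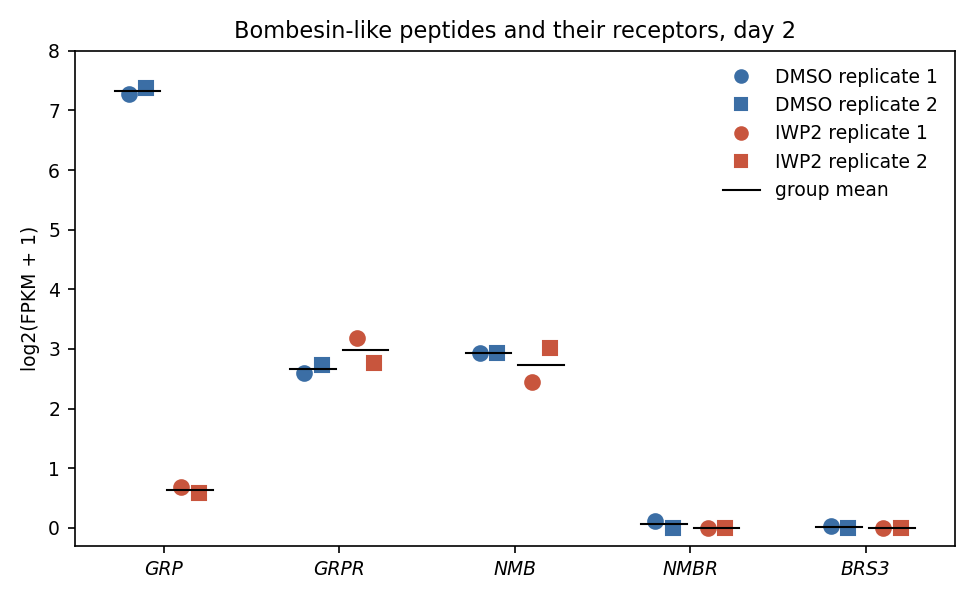
Level of each peptide and receptor gene in each library, as log2(FPKM + 1), with DMSO libraries in blue, IWP2 libraries in red and a black bar at each group's mean. GRP drops from above 7 in both DMSO libraries to below 1 in both IWP2 libraries, GRPR and NMB stay between 2 and 4, and NMBR and BRS3 lie at or near 0.

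The bases just before the GRP start are shown because GRP was the member with the large difference. The run below is the 250 bases upstream of the RefSeq start (GRCh38.p14, chr18:59219908-59220157, plus strand, 5′ to 3′), with capitals for a TATA box (TATAAA) that begins 29 bases before the start and for the short cAMP motif TGACG read on the other strand (CGTCA), 88 bases before it.
GRP: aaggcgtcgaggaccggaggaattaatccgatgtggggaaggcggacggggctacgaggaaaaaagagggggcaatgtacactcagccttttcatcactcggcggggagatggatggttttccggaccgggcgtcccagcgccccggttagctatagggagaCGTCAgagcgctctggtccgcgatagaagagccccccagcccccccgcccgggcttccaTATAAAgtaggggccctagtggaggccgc
TATAAA, searched on the gene's strand, was found in 6.80% of 35116 RefSeq promoter windows of this length, and in the window of GRP but not in those of GRPR and NMB. The RefSeq window listed for NMBR lies outside the GENCODE gene, over the start of VTA1, so it is left out here. TGACG, searched on both strands, was found in 21.2% of windows and in those of GRP and GRPR. The RefSeq start of NMB lies inside its GENCODE gene. The TCF/LEF letters CTTTGAT (2.26% of windows), the full cAMP element TGACGTCA (1.65%, which holds the short motif) and the T-box letters TCACACC (2.76%), each on both strands, were in none of these 3 windows. A match describes these letters only.

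GRPR, the receptor that prefers GRP, was expressed in all 4 libraries. It was read at 5.03 and 5.64 FPKM in the DMSO libraries and at 8.10 and 5.81 FPKM with IWP2. Both treated values were above both controls, the second by little, and 58.6% of all tested genes had groups that did not overlap. The fitted difference was 0.31 ± 0.18 (SE) on the log2 scale, with a 95% interval of -0.15 to 0.77, and did not pass the test (adjusted p = 0.325). The interval held a small decrease as well as a moderate increase. The difference leaned on IWP2 replicate 1, since the difference was 0.10 without it and 0.52 without IWP2 replicate 2. The values stood on about 214 to 377 fragments a library.

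The last exon of GRPR (ENSG00000126010.5, chrX:16123556-16153021, plus strand, 1 transcript) shares 81 exon bases with an antisense RNA, AC078993.1 (chrX:16152941-16170869, minus strand), which was looked up after its values were seen. AC078993.1 was read at 28.7 and 25.0 FPKM without IWP2 and at 1.81 and 1.25 FPKM with it. Its groups did not overlap, as in 58.6% of all tested genes, and the fall of 3.47 on the log2 scale passed the test (adjusted p = 7.66e-04). MAGEB17, a member of the melanoma antigen family 14.5 kb beyond the end of GRPR, was read at 8.73 and 12.1 FPKM in the controls and at 1.08 and 0.427 FPKM with IWP2, and also fell (log2 difference -2.72 ± 0.25, adjusted p = 0.00485). The spans of AC078993.1 and MAGEB17 also overlap on opposite strands, and their shared exon bases were not counted. No strand setting is given in the sources used here, so reads from bases that these genes share could not be assigned to a strand, and the part of such reads in these values was not tested. Of the 6 nearest protein-coding genes of GRPR, 5 were tested and MAGEB17 alone passed. Of the 6 nearest to NMBR, 4 were tested and none passed.

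NMB, the second ligand, was moderately expressed in all 4 libraries. Its values were 6.61 and 6.65 FPKM without IWP2 and 4.43 and 7.12 FPKM with it, so the controls lay between the treated libraries. The difference was -0.20 ± 0.22 on the log2 scale (SE), with a 95% interval of -0.75 to 0.35 (adjusted p = 0.594). Its sign rested on 1 library, since it was 0.090 without IWP2 replicate 1 and -0.49 without IWP2 replicate 2. The 95% interval likewise held changes in both directions. NMB (ENSG00000197696.9, chr15:84655129-84658563, minus strand) overlaps no other annotated gene, and its values rested on about 109 to 152 fragments a library.

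NMBR, the receptor that prefers NMB, was all but undetected. It was read at 0.0795 FPKM in DMSO replicate 1, which was about 2 fragments, and listed at 0 in the other 3 libraries. The NMBR gene (ENSG00000135577.4, chr6:142058330-142088799, minus strand) shares 138 exon bases with the antisense RNA NMBR-AS1, which was listed at 0 in all 4. BRS3 was read at 0.0169 FPKM in the same library and listed at 0 in the others. Both were below the minimum mean of 0.5 FPKM and were not tested. Of the 4 members, 3 were tested, and neither GRPR nor NMB was among the 13.3% of tested genes (2115 of 15957) that passed the test at an adjusted p under 0.05.

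The order of the levels, which FPKM allows since it is per length, differed between the groups. In DMSO libraries it was GRP, NMB, GRPR and NMBR, with GRP at 24.1 times the mean of NMB, and the lower NMB value (6.61) above the higher GRPR value (5.64). With IWP2 it was GRPR, NMB, GRP and NMBR, with the values of GRPR and NMB overlapping and the mean of NMB at 10.5 times that of GRP. GRP was therefore the main bombesin-like transcript only without IWP2, and NMB was the main peptide transcript with it. GRP stood at rank 512 of all genes in the DMSO mean, against 8617 for NMB and 9349 for GRPR.

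**Figure D2:**
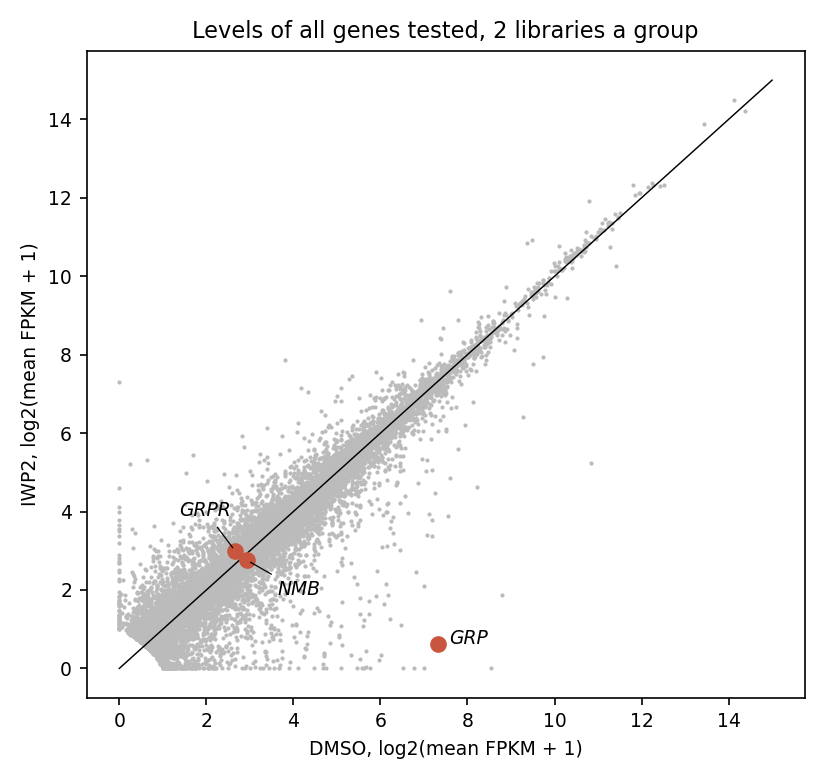
Mean level of each of the 15957 tested genes without IWP2 (horizontal axis) and with it (vertical axis), both as log2(mean FPKM + 1), with the line of equal levels. GRP (159.7 against 0.552 FPKM) lies far below the line, and GRPR and NMB lie close to it.

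No tested gene beside GRP had a difference of like size, which the choice of GRP by its large fall made likely. The nearest upstream protein-coding gene, SEC11C, a subunit of the signal peptidase that trims secreted precursors, was read at 36.0 and 27.4 FPKM without IWP2 and at 31.1 and 29.5 with it (log2 difference -0.05 ± 0.15, adjusted p = 0.854). ZNF532, a zinc finger gene, followed at 234 kb (0.34 ± 0.11, adjusted p = 0.123). MALT1, a protease of immune receptor signalling at 466 kb, fell from 10.8 and 14.0 FPKM to 6.10 and 6.09 FPKM (-0.91 ± 0.15, adjusted p = 0.0220). On the other side RAX, a homeobox gene of eye and forebrain 36.3 kb away, was read at 0.400 and 0.891 FPKM in the controls and at 0.0591 and 0 with IWP2, too low to be tested. CPLX4, a retinal complexin, was at or near 0 throughout. LMAN1, a cargo receptor of the early secretory pathway 97.0 kb away, fell modestly, from 29.7 and 33.7 to 22.6 and 20.5 FPKM (-0.54 ± 0.11, adjusted p = 0.0372).

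**Figure D3:**
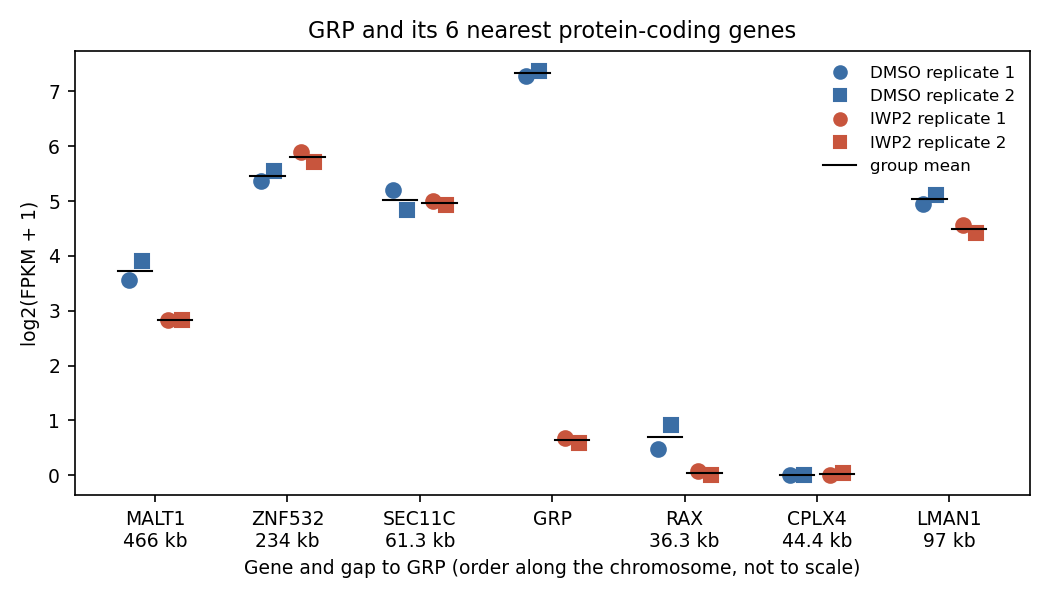
Levels of GRP and of the 3 nearest protein-coding genes on either side in each library, as log2(FPKM + 1), in chromosome order with the gap to GRP below each name, DMSO in blue and IWP2 in red. GRP, chosen for its fall, drops from above 7 to below 1. SEC11C, ZNF532, MALT1 and LMAN1 change less, and RAX and CPLX4 are below 1 in every library.

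NMB has a similar surrounding, since its nearest genes include SEC11A, a paralog of SEC11C. SEC11A was read at 123 and 109 FPKM without IWP2 and at 129 and 135 with it (0.18 ± 0.09, adjusted p = 0.267). WDR73, a WD repeat gene 785 bases from NMB, did not pass either (-0.24 ± 0.12, adjusted p = 0.265), nor did ZSCAN2 (-0.25 ± 0.26, adjusted p = 0.586) or ZNF592 (-0.34 ± 0.12, adjusted p = 0.131), both zinc finger genes. ALPK3, an alpha-kinase of heart muscle, fell from 19.9 and 17.3 to 12.04 and 9.63 FPKM (-0.73 ± 0.14, adjusted p = 0.0349), and GOLGA6L4, of a multigene family, was too low to be tested.

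The machinery that turns a precursor into an active peptide was measured in 16 genes, of which 13 were tested. Of these, 3 rose and 1 fell, against a background of 5.86% of tested genes higher and 7.39% lower, and the list's median difference was 0.41 beside -0.01 for all genes tested. The convertase FURIN rose from 41.9 and 36.6 to 57.3 and 54.8 FPKM (0.51 ± 0.10, adjusted p = 0.0339). SCG5, the chaperone of convertase PCSK2, rose from 1.39 and 1.28 to 3.16 and 3.28 FPKM (0.85 ± 0.15, adjusted p = 0.0245). SCG3, a granule protein, rose from 4.36 and 4.18 to 7.54 and 8.01 FPKM (0.74 ± 0.12, adjusted p = 0.0207). CPE, the carboxypeptidase that removes the basic residues after cleavage, fell from 19.1 and 21.0 to 11.7 and 10.9 FPKM (-0.77 ± 0.10, adjusted p = 0.0126).

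Enzymes named for their role, after their values were seen, completed the route. PAM, which forms the terminal amide, was read at 16.2 and 16.5 FPKM without IWP2 and at 21.0 and 23.1 with it (0.41 ± 0.10, adjusted p = 0.0564). The neuroendocrine convertases were low. PCSK2 was at 1.28 and 0.842 FPKM against 0.0619 and 0.140 (-0.90 ± 0.21, adjusted p = 0.0513). It reached the minimum of 0.5 FPKM only through the DMSO group, so its sign is not read as a result. The granule gene CHGB, also among the tested genes, reached this minimum only through the IWP2 group. PCSK1 lay between 0.0201 and 0.390 FPKM and was not tested. Of 4 peptide-degrading enzymes, all tested, 2 fell and none rose, beside 7.39% of all tested genes lower and 5.86% higher. MME, the neprilysin that cleaves GRP and other small peptides, fell from 22.5 and 26.9 to 12.5 and 11.8 FPKM (-0.96 ± 0.12, adjusted p = 0.0104). ECE1, the endothelin-converting enzyme, fell from 32.8 and 29.9 to 22.1 and 19.9 FPKM (-0.56 ± 0.10, adjusted p = 0.0292). ACE (-0.03 ± 0.23, adjusted p = 0.946) and ECE2 (0.37 ± 0.16, adjusted p = 0.213) did not pass.

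The coupling genes downstream of the receptors passed the test about as often as all genes. Of 18 genes for Gq/11 and G12/13 subunits, phospholipase C beta, inositol trisphosphate receptors and protein kinases C and D, 16 were tested, 1 rose and 1 fell, beside 13.3% of all tested genes called, with a median of -0.11. PLCB4, a phospholipase C beta that Gq activates, fell from 13.6 and 16.6 to 7.09 and 6.16 FPKM (-1.07 ± 0.14, adjusted p = 0.0119). PRKD1, protein kinase D, rose from 9.58 and 9.15 to 17.8 and 16.5 FPKM (0.81 ± 0.10, adjusted p = 0.0108). GNA12, the G12 alpha subunit, lay at 35.3 and 37.0 against 35.2 and 37.0 FPKM (-0.0019 ± 0.08, adjusted p = 0.991), and PLCB3 at 25.9 and 26.9 against 32.2 and 28.9 FPKM (0.20 ± 0.10, adjusted p = 0.248). All 8 desensitization genes were tested, and 1 rose, a share also near the 13.3% of all genes called, with a median of -0.22. It was ARRB2, a beta-arrestin, which went from 21.8 and 22.8 to 33.9 and 31.5 FPKM (0.53 ± 0.09, adjusted p = 0.0237). The kinases GRK2 (-0.42 ± 0.12, adjusted p = 0.0893) and GRK6 (0.03 ± 0.09, adjusted p = 0.886) and the arrestin ARRB1 (-0.23 ± 0.12, adjusted p = 0.267) did not pass. RGS4 had the largest difference of this list and did not pass either (-1.18 ± 0.31, adjusted p = 0.0713). It reached the minimum of 0.5 FPKM only through the DMSO group (means of 1.54 FPKM without IWP2 and 0.0799 with it).

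**Figure D4:**
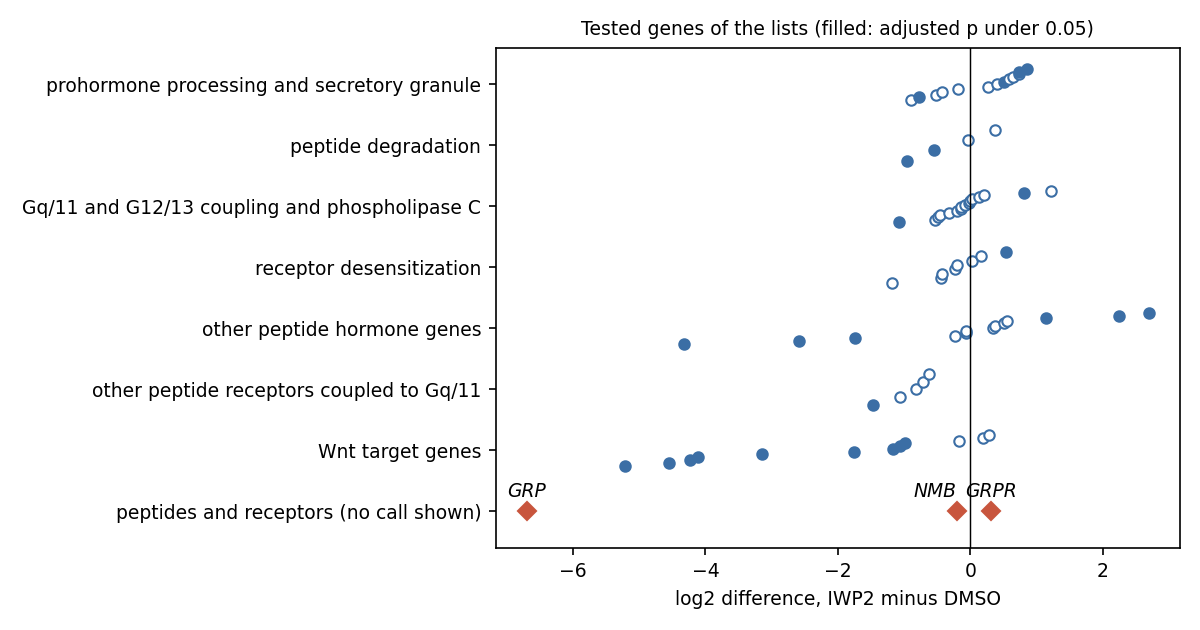
Difference between IWP2 and DMSO on the log2(FPKM + 1) scale for each tested gene of the lists (circles, filled where the adjusted p was under 0.05) and for GRP, GRPR and NMB (diamonds, no call shown). GRP, chosen for its fall, lies at -6.69, further left than any circle. Most genes of the coupling and desensitization lists are open circles within 1 of 0.

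Markers of cell state moved with GRP, and their counts stand beside 7.39% of all tested genes lower and 5.86% higher. All 8 mesoderm markers fell, from a summed level of 935 and 1157 FPKM to 88.1 and 89.2 FPKM. APLNR (379.7 and 512 FPKM) and MIXL1 (277.5 and 317.5 FPKM) made up most of the sums in the controls. The smallest fall was that of KDR (-0.60), from 53.2 and 60.4 to 38.6 and 35.7 FPKM. Of 7 definitive endoderm markers 6 were tested and 5 fell, the sum going from 1918 and 2307 to 126 and 137 FPKM. CER1, a secreted antagonist, made up most of the endoderm sum in the controls, at 1612 and 2048 against 38.6 and 34.2 FPKM. SOX17, the tested endoderm marker that did not pass, was at 154.7 and 104.2 against 79.7 and 94.9 FPKM (-0.54 ± 0.21, adjusted p = 0.166). Of 8 pluripotency markers 5 rose and 1 fell. SOX2 had the largest difference of this list, at 0.193 and 0.174 FPKM in the controls and 35.6 and 36.1 with IWP2. POU5F1 was high in both groups, at 750.7 and 571.4 FPKM in the controls and 1854 and 1844 with IWP2. TDGF1 was the marker that fell (-1.06). NANOG (0.98 ± 0.39, adjusted p = 0.182) and LIN28A (-0.05 ± 0.08, adjusted p = 0.746) did not pass. Of 12 Wnt target genes 9 fell and none rose, with a median of -1.46. The largest falls were those of SP5, at 53.2 and 47.1 against 0.379 and 0.363 FPKM, and LGR5, at 21.5 and 27.8 against 0.105 and 0.0763 FPKM. The smallest called fall was that of TCF7 (-0.99). NKD2 (0.28), ZNRF3 (0.19) and RNF43 (-0.17) did not pass. The part of these shifts in the level of GRP was not tested. Across all genes, log2 values correlated at 0.975 within the DMSO group, 0.982 within the IWP2 group and at most 0.948 between groups, so no library stood with the other group.

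GRP is a neuroendocrine product in the adult, so those markers were looked at beside it. Of 8 genes, 5 were tested, 1 fell and none rose, beside 13.3% of all tested genes called, and the sums were 67.3 and 50.8 FPKM without IWP2 and 58.0 and 60.3 with it, so the groups overlapped. The glycolytic enzyme ENO2, which many cells express, made up most of these sums (58.0 and 42.0 against 49.8 and 52.0 FPKM), while the synaptic vesicle protein SYP was at 0.450 and 0.431 against 1.20 and 1.17 FPKM and the granule protein CHGA at 0.966 and 1.09 against 2.10 and 2.24 FPKM, and NEUROD1, a neuroendocrine factor, was listed at 0 in all 4. SYT1, a calcium sensor of vesicle release, fell from 7.43 and 6.89 to 3.92 and 3.77 FPKM (-0.75 ± 0.12, adjusted p = 0.0214). Among the tested genes of this list, SYP and CHGB reached the minimum of 0.5 FPKM only through the IWP2 group. Of 6 neuroectoderm markers, 2 were tested and NES rose (0.49 ± 0.10, adjusted p = 0.0358). The other tested one, PAX6, was at 1.33 and 0.646 FPKM without IWP2 and at 0.0838 and 0.0278 with it and did not pass (-0.89 ± 0.24, adjusted p = 0.0771). PAX6 reached the minimum of 0.5 FPKM only through the DMSO group, so its sign is not read as a result. Of 8 amnion or trophoblast markers 6 were tested and 3 rose, beside 5.86% of all tested genes. KRT7 rose most (2.10 ± 0.19, adjusted p = 0.00463), then TFAP2A (1.22) and GABRP (1.16). GABRP reached the minimum of 0.5 FPKM only through the IWP2 group. TFAP2C (1.14 ± 0.32, adjusted p = 0.0823), GATA3 (-0.20 ± 0.10, adjusted p = 0.253) and ISL1 (-0.09 ± 0.12, adjusted p = 0.690) did not pass. CGA and VTCN1 were too low to be tested.

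The 6 genes whose profile over the 4 libraries was closest to that of GRP, by Euclidean distance on the log2(FPKM + 1) scale, were LZTS1 (distance 1.41), GATA6-AS1 (1.82), DLL3 (2.07), MESP1 (2.11), GATA6 (2.12) and BMPER (2.27). LZTS1, a leucine zipper protein, was the nearest, at 76.5 and 100.1 FPKM in the controls and 1.29 and 1.05 with IWP2. DLL3, a Notch ligand of the presomitic mesoderm, was at 44.9 and 81.6 against 0.254 and 0.292 FPKM. GATA6, a factor of endoderm and cardiac mesoderm, was at 119 and 135 against 3.52 and 3.01 FPKM, and the antisense RNA beside it had a like profile. BMPER, a secreted modulator of BMP, was at 59.2 and 74.2 against 2.56 and 1.65 FPKM. Their falls lay between -4.46 and -5.70, smaller than that of GRP, which was chosen for its fall. With 4 libraries in 2 groups the distance reflects little beyond the level in each group.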

How the data were processed

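RNA was sequenced from 4 libraries of H1 cells at day 2. The authors deposited 1 table of FPKM values per gene (58365 rows). The header does not name FPKM, but the sums (616364 to 653788) differ between libraries and the low values scale inversely with gene length. The submitters' processing notes name BWA, Bowtie, RSEM and hg19, with no versions. Yet 99.8% of the gene IDs with version found in GENCODE 29 had its GRCh38 position once 1 was added to the start, so GRCh38 positions are given. Columns were assigned to groups by the minus or plus sign before IWP2 in their names, which do not say which DMSO library each minus column is, so DMSO replicate numbers follow the column names. The highest-mean row per symbol was kept.

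Genes with a mean of at least 0.5 FPKM (15957) were fitted with limma 3.58.1 in R 4.3.3 on log2(FPKM + 1), with a mean-variance trend, group as the only term and Benjamini-Hochberg adjustment over all genes tested (two-sided, threshold 0.05). FPKM keeps no counts, so no count model was used. Fragment numbers were estimated from the smallest values of single-transcript genes of at least 3000 bases, with the longest transcript as length. The fit was tested on simulated data. Alternatives were other pseudocounts, filters and scalings, the replicate block, no trend, and leaving out each library.

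The members and lists were chosen with earlier results of these data known. Genes named were the members, BRS3, in each list up to 4 called genes with the largest difference (filled up to 4 with the highest-mean genes), the 3 nearest protein-coding genes on each side, and the 6 closest profiles. Some other genes of the lists were named after their values were seen. The doses of activin A and BMP4 are those of the labels, and the methods of the study give them the other way round. Sequences came from RefSeq promoters (GRCh38.p14) and GENCODE 29 transcripts. All 4 members had a RefSeq window by symbol, but that of NMBR lies outside its GENCODE gene and was not used.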

Additional observations from a re-analysis of the deposited data

How the results depend on the processing

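GRP was lower with IWP2 under all 12 alternatives, which adds no support, since GRP was chosen for its fall in these libraries. Its log2 difference depended on the pseudocount, at -7.94 with 0.1 and -7.25 with 0.5, because the treated level was under 1 FPKM. GRPR passed the test under none of 12 alternatives (0.10 to 0.52, adjusted p 0.268 to 0.781). NMB also passed under none (adjusted p 0.269 to 0.787), and its difference ranged from -0.49 without IWP2 replicate 2 to 0.090 without IWP2 replicate 1, where it changed sign. NMBR was below the filter on low values. The planned count models were not run, since the table holds no counts.

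The 2115 calls (935 higher, 1180 lower) became 384 (118 higher, 266 lower) with no filter, over 28846 genes. Leaving out a library left a group with 1 sample, assumed to vary like the other. The calls were then 731 without DMSO replicate 1, 450 without DMSO replicate 2, 128 without IWP2 replicate 1 and 107 without IWP2 replicate 2, with 19 to 300 higher and 88 to 431 lower. The other 7 alternatives kept the count within 1.5 times. The replicate block gave 1922 calls and changed no call of a member. Deviations of same-numbered libraries correlated at 0.14, and with 2 pairs the numbers were not taken as pairs. With 2 libraries a group, changes of the size fitted for GRPR and NMB could not be told from 0.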

Other observations

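Other peptide hormone genes moved in both directions. Of 30 genes on the list, 13 were tested, 3 fell and 3 rose, beside 7.39% of all tested genes lower and 5.86% higher, with a median of 0.34 on the log2 scale. PENK, the precursor of the enkephalins, fell from 25.8 and 24.5 FPKM without IWP2 to 0.0934 and 0.543 with it (-4.33 ± 0.20, adjusted p = 7.66e-04). NPY, neuropeptide Y, fell from 11.01 and 10.3 to 1.59 and 0.467 FPKM (-2.58 ± 0.29, adjusted p = 0.00757). NPPB, the B-type natriuretic peptide, rose from 19.5 and 19.2 to 126 and 135 FPKM (2.69 ± 0.08, adjusted p = 3.86e-04). ADM, the vasodilator adrenomedullin, rose from 21.8 and 10.6 to 72.2 and 79.8 FPKM (2.24 ± 0.32, adjusted p = 0.0148). The other called genes were TRH, which fell (-1.75), and POMC, which rose (1.15). By level, NTS, the precursor of neurotensin and named here after its values were seen, exceeded GRP in every library, at 1162 and 1260 FPKM without IWP2 and 1536 and 1528 with it (0.34 ± 0.09, adjusted p = 0.0739).

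Of 21 other peptide receptors coupled to Gq/11, 5 were tested, and F2R alone passed, beside 7.39% of all tested genes lower. All 5 differences were negative, with a median of -0.82. However, TACR1 (means of 1.36 FPKM without IWP2 and 0.0963 with it) and TACR3 (1.56 and 0.454) reached the minimum of 0.5 FPKM only through the DMSO group. The shared sign is therefore not read as a trait of these receptors. F2R, the thrombin receptor, fell from 15.7 and 12.7 to 4.58 and 4.31 FPKM (-1.47 ± 0.14, adjusted p = 0.00515). The tachykinin receptor TACR3 (-0.82 ± 0.21, adjusted p = 0.0659), the gastrin receptor CCKBR (-0.71 ± 0.23, adjusted p = 0.113) and the oxytocin receptor OXTR (-0.62 ± 0.25, adjusted p = 0.182) did not pass.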
